A study of Mus musculus with 6 samples.

Results

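The levels of 9 genes of retinoic acid signalling were followed through the silencing of mrhl, a noncoding RNA, in mouse spermatogonial cells. They were the retinoic acid receptors Rara, Rarb and Rarg, the retinoid X receptors Rxra and Rxrb, the synthesizing enzymes Aldh1a1 and Aldh1a2, the degrading enzyme Cyp26b1 and the binding protein Crabp1. All probe sets paired with exactly 1 of these 9 gene symbols were taken, which gave 12 of the 45037 non-control probe sets on the array, and every gene had at least 1.

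The cells were GC1-Spg, an established mouse line derived from spermatogonia, grown in medium with serum. The groups were cells transfected with 100 nM siRNA against mrhl and cells transfected with 100 nM scrambled siRNA, and both were harvested 44 h later. Each group held 3 biological replicates on 1-colour Affymetrix arrays. The probe table paired 0 probe sets with mrhl, so its silencing was not read here. Untransfected cells were not among the samples, and an effect that siRNA delivery has in both groups is therefore outside the comparison. No retinoid or retinoid inhibitor is named in the labels, and retinoids carried by the serum were not measured.

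The deposited values were log2 expression values, with medians over the probe sets that differed by at most 0.11 between arrays. A probe set was tested where its mean log2 value reached 3.62, the 25th percentile, which left 33778, and the groups were compared with limma. Precision is limited by having 3 arrays a group: over all tested probe sets, standard errors of the log2 fold changes had a median of 0.192. The germ cell label was checked against 14 marker genes, of which 13 had a probe set, 9 were bright enough to be tested and 3 lay above the median level of 5.23. The germ cell gene Ddx4 averaged 2.43 ± 1.11 after mrhl siRNA and 2.31 ± 0.87 after scrambled siRNA (SD, n = 3 each), and Dazl averaged 3.39 ± 0.29 after mrhl siRNA and 3.31 ± 0.40 after scrambled siRNA. All 4 means lay under 3.62, so Ddx4 and Dazl were not among the 9 tested markers and do not stand for the list. All 8 Sertoli cell markers and 6 of 7 myoid cell and fibroblast markers were tested, where 14885 of all 18193 named genes were. Above the median level lay 5 of the Sertoli cell, 4 of the myoid and fibroblast and 1 of the 3 tested Leydig cell markers. The median log2 fold changes of the 4 marker lists ran from -0.07 for 3 Leydig cell markers to 0.22 for the 6 myoid and fibroblast markers. The part of these cell programmes in the results below was not tested.

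Retinoic acid is made from vitamin A in a pair of oxidation steps, the last of which is carried out by retinaldehyde dehydrogenases such as Aldh1a1 and Aldh1a2. In the cell it is held by binding proteins, cleared by cytochromes of the Cyp26 family, and sensed by retinoic acid receptors, which bind DNA as heterodimers with retinoid X receptors. In the testis it drives spermatogonia into differentiation and germ cells into meiosis. Rarg is the receptor known for its role in the differentiation of spermatogonia, and Rara is also needed in Sertoli cells.

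The heterodimers bind direct repeats of a hexamer. Rarb is itself a textbook target of retinoic acid through such a repeat, and for this reason its promoter window is shown first. It is followed by a window each of Rarg and Rara, the receptors with the largest differences between the groups among those bright enough to be tested; where RefSeq gives several starts, the window with the most hexamers is shown. Each window runs from 250 bases before to 50 bases after a transcript start given by RefSeq on mouse assembly GRCm38.p6. The starts shown for Rarb and Rara lie within the bounds of the gene and not at its outer end. Capitals mark the hexamer AGGTCA and its variant AGTTCA, the variant GGGTCA and also the variant GGTTCA, on either strand, so that a hexamer on the opposite strand reads as its reverse complement.
Rarb, chr14:16575427-16575726, minus strand: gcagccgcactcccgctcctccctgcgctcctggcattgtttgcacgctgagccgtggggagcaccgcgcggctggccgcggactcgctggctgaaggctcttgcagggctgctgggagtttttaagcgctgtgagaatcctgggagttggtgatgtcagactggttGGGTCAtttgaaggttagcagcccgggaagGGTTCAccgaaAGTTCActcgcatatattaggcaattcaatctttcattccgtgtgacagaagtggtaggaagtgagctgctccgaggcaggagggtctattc
Rarg, chr15:102257473-102257772, minus strand: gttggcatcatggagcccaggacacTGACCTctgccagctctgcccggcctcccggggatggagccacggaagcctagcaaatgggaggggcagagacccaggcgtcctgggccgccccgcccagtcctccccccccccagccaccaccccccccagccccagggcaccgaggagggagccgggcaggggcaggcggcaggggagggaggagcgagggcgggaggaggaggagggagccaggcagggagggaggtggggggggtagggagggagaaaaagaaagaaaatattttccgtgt
Rara, chr11:98939461-98939760, plus strand: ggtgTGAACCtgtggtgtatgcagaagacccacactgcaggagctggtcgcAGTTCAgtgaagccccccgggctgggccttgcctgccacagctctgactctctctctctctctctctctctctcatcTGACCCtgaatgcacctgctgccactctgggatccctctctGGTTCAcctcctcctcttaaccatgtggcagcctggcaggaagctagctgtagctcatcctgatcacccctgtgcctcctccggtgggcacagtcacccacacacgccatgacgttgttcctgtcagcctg

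The Rarb window held the direct repeat DR5, in which a pair of hexamers on the same strand is separated by 5 bases, from 53 to 37 bases before the start. DR5 was found in 1 of the 16 windows of the 9 genes and in 0.0974% of the 32851 windows of all genes. The repeats DR1 and DR2, with 1 and 2 bases between the hexamers, were found in 0 of the 16 windows, against 0.222% and 0.268% of all windows. Single hexamers occurred in 6 of the 16 windows and in 43.7% of all windows, and those within a DR5 are counted among them. The Rarg window shown held a single hexamer, and the Rara window shown held 4. Both were picked for holding the most. The other windows of Rara held 0, 0 and 1, and the other window of Rarg held 0. A match is a description of these letters and not evidence of binding.

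None of the 10 tested probe sets of the 9 genes passed the test. Of these, 6 were higher after mrhl siRNA in every pair of arrays of equal replicate number, against 14.1% of all tested probe sets. In the other direction 1 was lower in every pair, against 23.4% of all. The 6 were both of Rarg, 1 of Rxra and those of Rara, Rxrb and Aldh1a1. For Rara 1 pair differed by only 0.01. RNA was taken from whole cultures, so a level that is lower in each cell and one present in fewer cells cannot be told apart. The 10 tested probe sets covered 8 genes, and Rarb was too dim to be tested. Their adjusted p ran from 0.965 to 0.986 (limma, Benjamini-Hochberg over all 33778 probe sets), where 0% of all tested probe sets passed. Of the 10 log2 fold changes 8 were positive and 2 negative, with a median of 0.15. Over all tested probe sets the median was -0.03, with 14810 positive and 18968 negative. At an unadjusted p under 0.05 stood 2 of the 10 probe sets, both of Rarg and both higher after mrhl siRNA, against 3.44% of all tested probe sets in either direction and 1.26% in that one (limma). With the replicate number as a block, 5 of the 10 stood there, against 10.1% of all (limma), 4 of them higher, against 3.87% of all, and 1 lower, against 6.23% of all. In that fit the adjusted p of the 10 ran from 0.487 to 0.918. Those 5 were both probe sets of Rarg and those of Rara, Aldh1a1 and Aldh1a2.

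**Figure D1:**
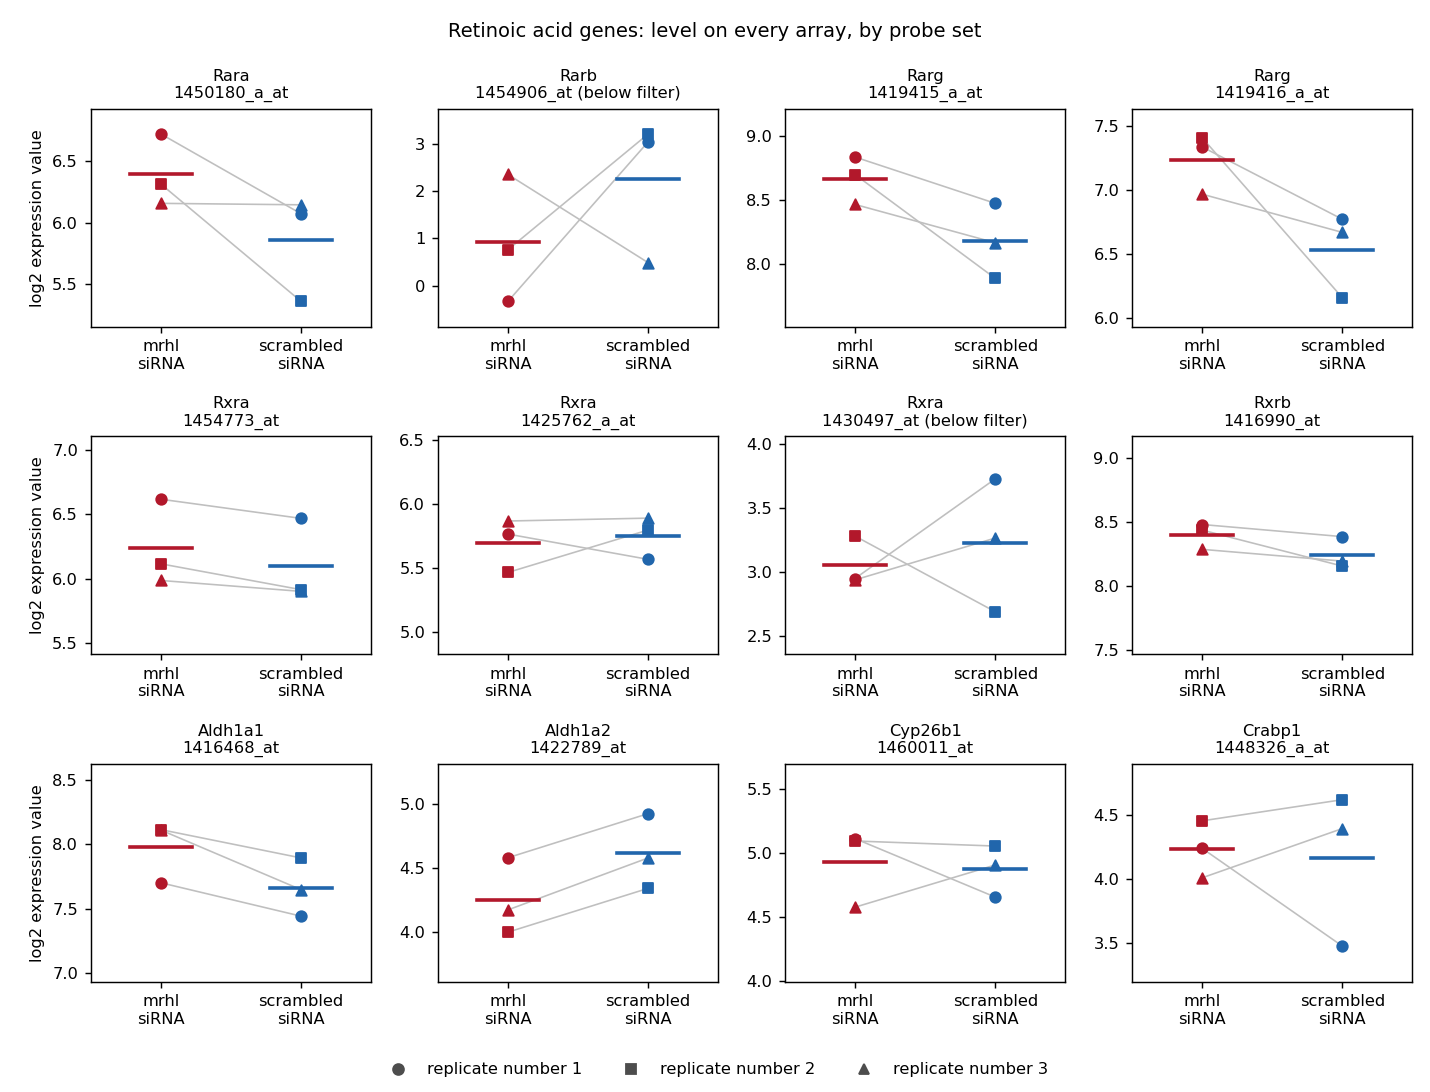
Log2 expression value on each array for the 12 probe sets, with mrhl siRNA on the left and scrambled siRNA on the right of each panel. Points are arrays, marker shapes give the replicate number, grey lines join equal numbers and bars are group means. The vertical scale differs between panels. For Rarg probe set 1419416_a_at the 3 arrays after mrhl siRNA lie between 6.97 and 7.41, all above the arrays after scrambled siRNA.

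Rarg, which encodes the gamma receptor, had the largest log2 fold change of the 10, and both of its probe sets gave the same direction. Probe set 1419416_a_at read 7.34, 7.41 and 6.97 after mrhl siRNA (replicates 1, 2 and 3), against 6.77, 6.16 and 6.67 after scrambled siRNA. Every array after mrhl siRNA was above every array after scrambled siRNA, and scrambled siRNA replicate 2 was the lowest. The means were 7.24 ± 0.24 after mrhl siRNA and 6.53 ± 0.33 after scrambled siRNA (SD, n = 3 each), a 1.63-fold difference. This is a log2 fold change of 0.70 (SE 0.213, 95% interval 0.21 to 1.20; limma, adjusted p = 0.965).

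Rarg probe set 1419415_a_at read 8.83, 8.70 and 8.46 after mrhl siRNA, against 8.47, 7.88 and 8.16 after scrambled siRNA. The groups overlapped narrowly, since mrhl siRNA replicate 3 lay just under scrambled siRNA replicate 1. This gave a log2 fold change of 0.49 (SE 0.194, 95% interval 0.04 to 0.95; limma, adjusted p = 0.965). Within pairs of equal replicate number the differences were 0.36, 0.81 and 0.30 for this probe set, and 0.57, 1.25 and 0.30 for probe set 1419416_a_at. The pair of number 2 gave the largest difference in both. Without scrambled siRNA replicate 2 the log2 fold changes of Rarg were 0.35 and 0.52. With the replicate block the 95% intervals were 0.12 to 0.86 and 0.18 to 1.23 in the same order (limma, adjusted p = 0.487 for each).

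Rara, which encodes the alpha receptor, was read by 1 probe set. It stood at 6.72, 6.31 and 6.16 after mrhl siRNA, against 6.07, 5.36 and 6.15 after scrambled siRNA. The groups did not overlap, but in the pair of number 3 they differed by only 0.01. The other pair differences were 0.65 and 0.95. This gave a log2 fold change of 0.54 (SE 0.255, 95% interval -0.06 to 1.13; limma, adjusted p = 0.965), a 1.45-fold difference. Without scrambled siRNA replicate 2, the lowest array here as for Rarg, it was 0.29. With the replicate block the 95% interval of Rara was 0.02 to 1.05 (limma, adjusted p = 0.491). Among the 10 tested probe sets, 2 had groups that did not overlap with mrhl siRNA higher, Rara and Rarg 1419416_a_at, against 2.58% of all tested probe sets, and 0 had them lower, against 5.82% of all. In either direction the groups did not overlap in 8.4% of all.

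Rarb, the beta receptor whose promoter holds the direct repeat shown above, was represented by a single probe set with values under 3.62 on all 6 arrays. It read -0.34, 0.76 and 2.36 after mrhl siRNA, against 3.05, 3.22 and 0.49 after scrambled siRNA. The groups overlapped, and the pairs lay on both sides of 0. Both groups were below the level that was tested, so no fold is given for Rarb.

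The retinoid X receptors, the heterodimer partners of all 3 retinoic acid receptors, had log2 fold changes between -0.05 and 0.16 in their 3 tested probe sets. Rxrb read 8.48, 8.44 and 8.28 after mrhl siRNA, against 8.38, 8.15 and 8.19 after scrambled siRNA. Its log2 fold change was 0.16 (SE 0.143, 95% interval -0.18 to 0.49; limma, adjusted p = 0.965), and it was higher in 3 of 3 pairs by 0.09, 0.28 and 0.09. The groups overlapped, and their difference was close to the standard error of the fit.

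Rxra had 3 probe sets, and these differed in sign. Probe set 1454773_at read 6.62, 6.11 and 5.98 after mrhl siRNA, against 6.47, 5.91 and 5.90 after scrambled siRNA. Replicate number 1 was the highest in both groups, and the pair differences of 0.15, 0.20 and 0.09 were smaller than the spread between the numbers. Its log2 fold change was 0.15 (95% interval -0.41 to 0.70; limma, adjusted p = 0.967). Probe set 1425762_a_at read 5.77, 5.47 and 5.87 after mrhl siRNA, against 5.57, 5.80 and 5.89 after scrambled siRNA, a log2 fold change of -0.05 (95% interval -0.45 to 0.34; limma, adjusted p = 0.983). The groups overlapped in both. Probe set 1430497_at averaged 3.06 ± 0.19 after mrhl siRNA and 3.23 ± 0.52 after scrambled siRNA (SD, n = 3 each), under the level that was tested.

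**Figure D2:**
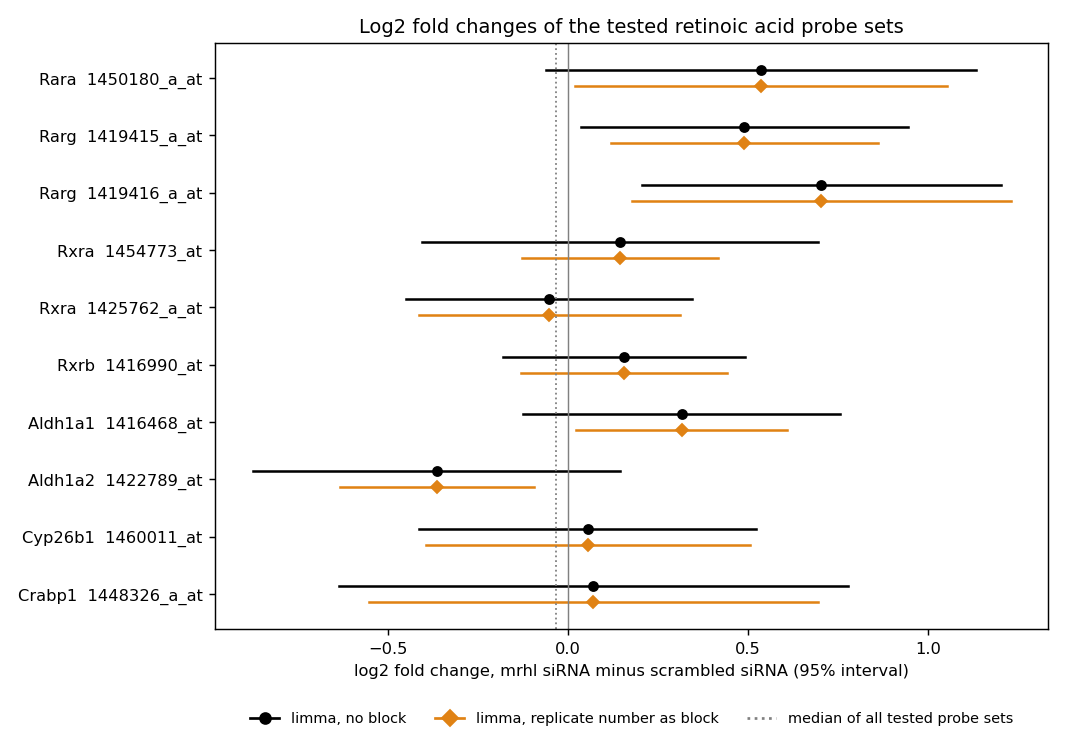
Log2 fold changes (mrhl siRNA minus scrambled siRNA, horizontal axis) of the 10 tested probe sets with 95% intervals, from limma without a block (circles) and with the replicate number as a block (diamonds). The dotted line is the median of all tested probe sets, -0.03. Without the block the intervals of both Rarg probe sets lie above 0 and the other 8 hold 0.

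The pair of retinaldehyde dehydrogenases lay on opposite sides of 0. Aldh1a1 read 7.70, 8.12 and 8.11 after mrhl siRNA, against 7.44, 7.89 and 7.65 after scrambled siRNA. Replicate number 1 was the lowest in both groups, so the groups overlapped although each pair was higher after mrhl siRNA, by 0.26, 0.22 and 0.47. Its log2 fold change came to 0.32 (SE 0.189, 95% interval -0.13 to 0.76; limma, adjusted p = 0.965), and to 0.21 without scrambled siRNA replicate 1. With the replicate block its 95% interval was 0.02 to 0.61 (limma, adjusted p = 0.487).

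Aldh1a2, the other enzyme of this step, was the only tested gene of the 9 lower in 3 of 3 pairs. It read 4.58, 3.996 and 4.17 after mrhl siRNA, against 4.92, 4.34 and 4.58 after scrambled siRNA. Replicate number 1 was the highest and number 2 the lowest in both groups, and the pair differences were -0.34, -0.34 and -0.41. Its log2 fold change came to -0.36 (SE 0.218, 95% interval -0.87 to 0.15; limma, adjusted p = 0.965). It was -0.21 without scrambled siRNA replicate 1, -0.24 without mrhl siRNA replicate 2 and -0.21 with an offset of 16 added before taking logs. With the replicate block the 95% interval was -0.63 to -0.10 (limma, adjusted p = 0.487), but with the block and a trended and robust variance Aldh1a2 no longer stood at an unadjusted p under 0.05 (limma, adjusted p = 0.467). All 6 values of Aldh1a2 lay under 5.23, the median level, where log2 values respond strongly to little signal.

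Among the 10 tested probe sets 6 were higher in 3 of 3 pairs, against 14.1% of all tested probe sets, and 1 was lower in 3 of 3 pairs, against 23.4% of all. The 6 were those of Rara, Rarg (2), Rxra 1454773_at, Rxrb and Aldh1a1. Probe sets of a gene share its transcripts, so those of Rarg do not count as independent.

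The degrading enzyme and the binding protein showed no common direction. Cyp26b1, which oxidizes retinoic acid and is known in the fetal testis for keeping it from germ cells, read 5.12, 5.10 and 4.58 after mrhl siRNA, against 4.66, 5.06 and 4.91 after scrambled siRNA. The groups overlapped, with pair differences of 0.46, 0.04 and -0.33 and a log2 fold change of 0.06 (95% interval -0.41 to 0.52; limma, adjusted p = 0.983). Crabp1, a cytosolic binding protein for retinoic acid, read 4.24, 4.45 and 4.01 after mrhl siRNA, against 3.47, 4.62 and 4.39 after scrambled siRNA. Scrambled siRNA replicate 1 was the lowest of the 6 arrays, and the log2 fold change was 0.07 (95% interval -0.64 to 0.78; limma, adjusted p = 0.986). Without that array it was -0.27. The mean levels of both genes lay under the median level.

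**Figure D3:**
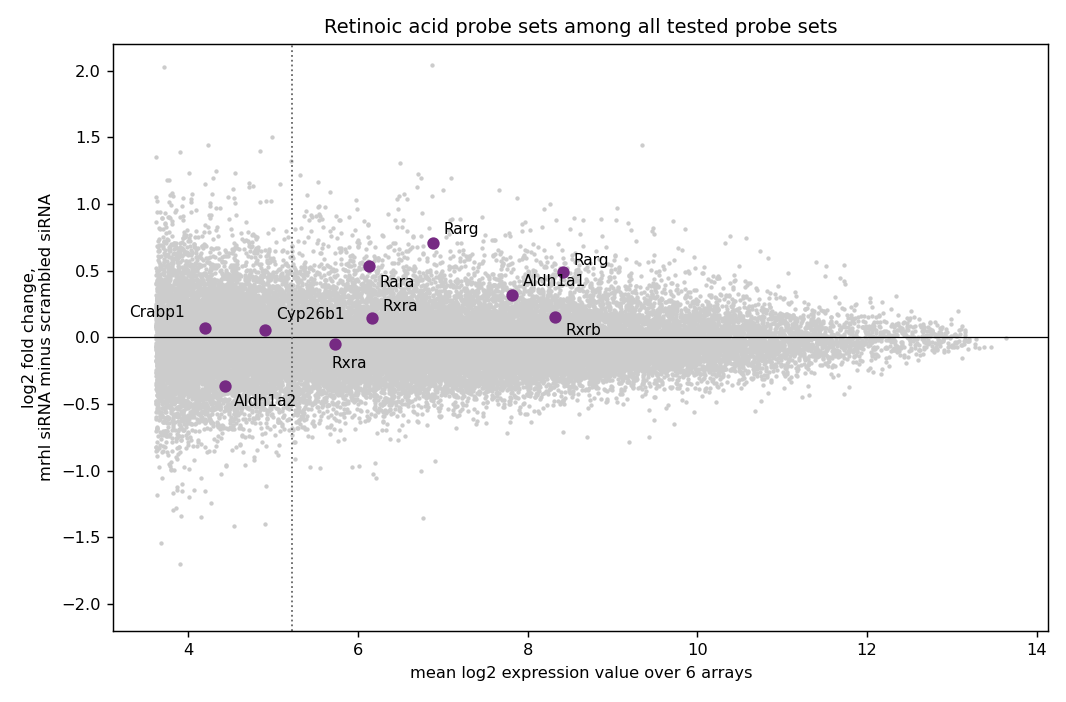
Log2 fold change (mrhl siRNA minus scrambled siRNA) against mean log2 expression value over the 6 arrays for all 33778 tested probe sets (grey) and the 10 tested retinoic acid probe sets (purple). The dotted line is the median level of 5.23. Rarg, Rara and Aldh1a1 lie above 0, Aldh1a2 lies below, and other probe sets reach larger differences at each of these levels.

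The genes whose profiles over the 6 arrays were most like those of Rarg and Rara were found by the mean absolute difference between log2 values centred on each gene's own mean, among 19449 tested probe sets above the median level. For Rarg, read through probe set 1419415_a_at, these were Tmsb10, Nfix and Cd99, with mean absolute differences from 0.0351 to 0.0365. Their log2 fold changes were 0.43, 0.49 and 0.42. For Rara they were Ahdc1, Gna12 and the Wnt receptor gene Fzd2, with mean absolute differences from 0.0748 to 0.0805. Their log2 fold changes were 0.63, 0.44 and 0.44. All 6 had an adjusted p of 0.965 (limma), and the arrays they share with Rarg and Rara are the same 6. The compared profiles hold the group difference, so log2 fold changes near those of Rarg and Rara follow from the choice.

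The other genes of retinoid metabolism and response were read from 7 lists, of which 77 genes were tested and 0 passed, against 0% of all tested probe sets (limma). At an unadjusted p under 0.05 stood 4 of the 77, 2 with mrhl siRNA higher and 2 with it lower (limma). These were Vdr, Nr2f2, Bco1 and Sycp3. Of all tested probe sets 1.26% stood there with mrhl siRNA higher and 2.18% with it lower. These shares count probe sets, whereas the 77 are genes read through their brightest tested probe set. With the replicate block 6 of the 77 stood there, 3 with mrhl siRNA higher, against 3.87% of all tested probe sets, and 3 with it lower, against 6.23% (limma). In that fit Rbp2, Rdh10 and Rdh1 came in and Nr2f2 dropped out, and the smallest adjusted p of the 77 was 0.487. The median log2 fold change of the 77 was -0.014, against -0.04 for all 14885 tested genes. The adjusted p of each gene named below was 0.965 (limma) unless another value is given.

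Of 16 tested genes of ligand synthesis and storage 6 were positive and 10 negative, with a median log2 fold change of -0.03. Bco1, which cleaves beta-carotene to retinal, read 3.78, 4.14 and 3.73 after mrhl siRNA, against 4.48, 4.35 and 4.32 after scrambled siRNA. Its groups did not overlap, but its level was close to 3.62, and the log2 fold change was -0.50 (SE 0.162). Rdh10, the retinol dehydrogenase of the first oxidation step in the embryo, read 8.74, 8.45 and 8.54 after mrhl siRNA, against 9.001, 9.12 and 8.72 after scrambled siRNA. It was lower in 3 of 3 pairs with a log2 fold change of -0.37 (SE 0.166), its other probe set had -0.33, and mrhl siRNA replicate 1 overlapped scrambled siRNA replicate 3. With the replicate block its 95% interval was -0.73 to -0.01 (limma, adjusted p = 0.492). The retinol dehydrogenase gene Rdh1 had a log2 fold change of 0.46 (SE 0.211) and non-overlapping groups at a level under the median, and with the replicate block its 95% interval was 0.0012 to 0.92 (limma, adjusted p = 0.495).

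Of 8 tested genes of binding and uptake 5 were positive and 3 negative, with a median of 0.06. Crabp2, which carries retinoic acid to the receptors, averaged 4.02 ± 0.21 after mrhl siRNA and 4.44 ± 0.32 after scrambled siRNA (SD, n = 3 each), a log2 fold change of -0.42 (SE 0.207). Rbp2, an intracellular retinol-binding protein, had 0.76 with an SE of 0.488, and with the replicate block its 95% interval was 0.19 to 1.34 (limma, adjusted p = 0.487). Rbp4, the retinol carrier of plasma, had -0.11 (SE 0.144). Of the genes of degradation, Cyp2s1 and Cyp3a13 were tested, with log2 fold changes of -0.10 and -0.17 (limma, adjusted p = 0.969 for each). Cyp26a1, the retinoic acid hydroxylase that retinoic acid itself induces, averaged 3.29 ± 0.35 after mrhl siRNA and 3.71 ± 0.10 after scrambled siRNA (SD, n = 3 each), and its mean over all arrays was too low to be tested.

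**Figure D4:**
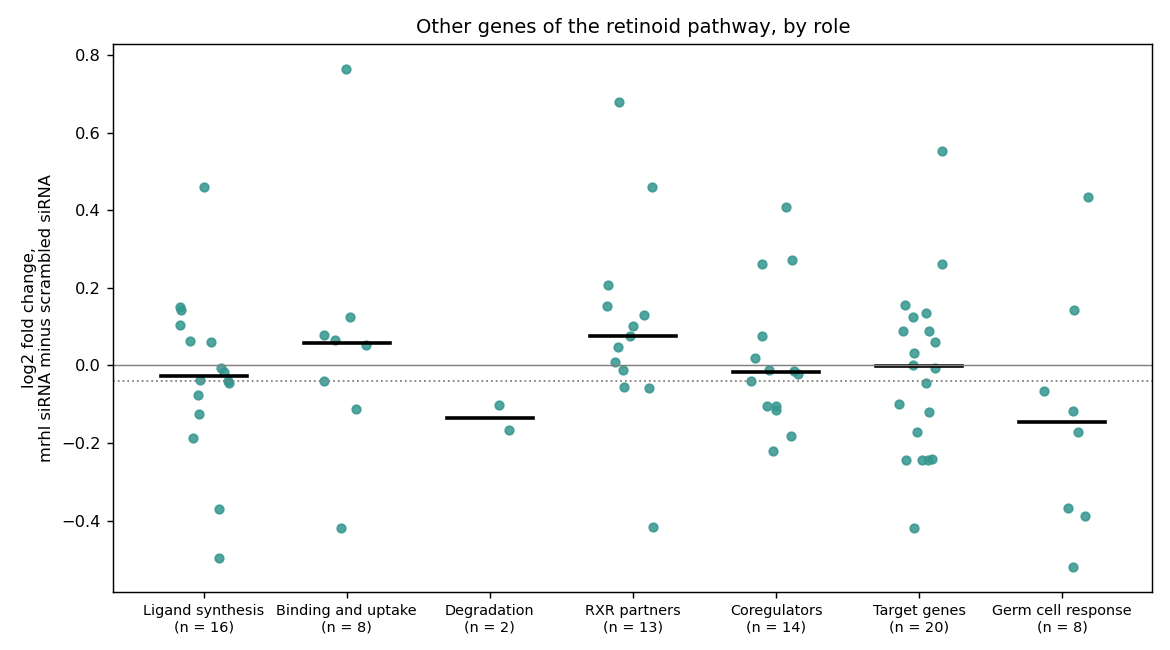
Log2 fold changes (mrhl siRNA minus scrambled siRNA) of the other tested retinoid pathway genes by role, with n genes per list; bars are list medians and the dotted line is the median of all tested genes, -0.04. Points are genes read through their brightest tested probe set, and a gene in more than 1 list is shown in each. List medians lie between -0.15 for the germ cell response and 0.08 for the partners of retinoid X receptors.

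Of 14 nuclear receptors listed with the retinoid X receptors, 13 had a probe set. All 13 were tested, and 9 were positive and 4 negative, with a median log2 fold change of 0.08. The vitamin D receptor gene Vdr read 6.84, 6.45 and 6.32 after mrhl siRNA, against 6.20, 5.30 and 6.07 after scrambled siRNA. Its groups did not overlap and scrambled siRNA replicate 2 was the lowest array, as for Rara and Rarg. The log2 fold change was 0.68 (SE 0.269), while its other probe set had 0.11. The receptor genes Nr1i3 and Ppard had -0.42 (SE 0.199) and 0.46 (SE 0.297), and a dimmer probe set of Ppard had -0.22.

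Of 14 tested coactivators and corepressors 5 were positive and 9 negative, with a median of -0.018. The arginine methyltransferase gene Carm1 had a log2 fold change of 0.41 (SE 0.219). The acetyltransferase gene Kat2b had -0.22 (SE 0.139), with its other probe sets at -0.28 and -0.23. Tbl1xr1, of the corepressor complex, had -0.18 (SE 0.135), and its other tested probe sets ran from -0.28 to 0.18.

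Of 20 tested retinoic acid target genes 10 were positive and 10 negative, with a median log2 fold change of -0.0020. The nuclear receptor gene Nr2f2 averaged 7.99 ± 0.14 after mrhl siRNA and 7.44 ± 0.41 after scrambled siRNA (SD, n = 3 each), a log2 fold change of 0.55 (SE 0.223, with the replicate block a 95% interval of -0.01 to 1.11 and an adjusted p of 0.495 in limma). Its other tested probe sets ran from -0.12 to 0.22, so the probe sets of Nr2f2 did not share a direction. Crabp2, given above, and the corepressor gene Nrip1, at 0.26 (SE 0.208), had the next smallest p. The other probe sets of Nrip1 ran from -0.22 to 0.30. Another 8 target genes with a probe set were too dim to be tested, Hoxb1 and Cyp26a1 among them.

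The retinoic acid response of germ cells could be read for 8 of 13 genes with a probe set, of which 1 lay above the median level. Of the 8, 2 were positive and 6 negative, with a median log2 fold change of -0.15. The synaptonemal complex gene Sycp3 read 4.45, 4.42 and 4.71 after mrhl siRNA, against 4.97, 5.38 and 4.78 after scrambled siRNA, without overlap, a log2 fold change of -0.52 (SE 0.193). The DNA methyltransferase gene Dnmt3b had -0.37 (SE 0.195), while its other probe set had -0.13. The receptor kinase gene Kit had -0.39 (SE 0.238), and its mean over all arrays, 3.623, barely passed the filter. Stra8, the gene through which retinoic acid starts meiosis, averaged 3.91 ± 0.29 after mrhl siRNA and 3.48 ± 0.75 after scrambled siRNA (SD, n = 3 each), near the level of 3.62 below which probe sets were left out.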

How the data were processed

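RNA from 6 GC1-Spg cultures was measured on 1-colour Affymetrix arrays, 3 after mrhl siRNA and 3 after scrambled siRNA, grouped by the sample titles. The deposited values are log2 expression values, 1 per probe set and array. GCOS and PLIER were used, per the submitters' processing notes; their settings, as well as background correction and normalization, were not given in the sources used here. No further normalization was applied.

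Of 45101 rows, 64 control rows were left out. Of the remaining 45037 probe sets, 34945 were paired with 1 symbol and 932 with several, and 9160 were not listed in the probe table. Probe sets with a mean under the 25th percentile, 3.62, were not tested. The test was limma 3.58.1 (lmFit, eBayes) under R 4.3.3. Differences are mrhl siRNA minus scrambled siRNA, and p-values were adjusted by Benjamini-Hochberg over the 33778 tested probe sets, with a threshold of 0.05. The fit was tested on simulated data. A list gene was read through its brightest tested probe set. Promoter windows are RefSeq's.

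The replicate numbers were read as pairs: deviations from the group means of equal numbers correlated at 0.534, 0.201 and 0.567 over the tested probe sets, those of unequal numbers between -0.518 and 0.0684, and the design text names independent experiments. Deviations within a group cancel out, so positive values for equal numbers push those of unequal numbers towards negative ones. The lower values for unequal numbers are therefore not separate support for the pairing.

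The genes and lists were chosen with earlier results of these data known. Every probe set of the 9 genes is given; of each list, the 3 genes with the smallest p where none passed; and the 3 genes most like each of Rara and Rarg. Cyp26a1, Hoxb1, Stra8, Ddx4 and Dazl were named for their roles with their values known. Figures were drawn with matplotlib 3.10.9.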

Additional observations from a re-analysis of the deposited data

How the results depend on the processing

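None of the 10 tested probe sets passed an adjusted p of 0.05 in limma under any alternative run on it: an offset of 16 before taking logs, quantile normalization, array weights, equal array medians, a trended and robust variance, the replicate block, no filter, a filter at 5.23 (which leaves out Aldh1a2, Cyp26b1 and Crabp1), the omission of each array in turn, and, chosen after seeing the data, the block with the trended and robust variance and both arrays of number 1 left out. The lowest adjusted p was 0.234, for Rarg. Of 157 log2 fold changes under these alternatives 147 kept their direction and 10 turned. All those of Rara, Rarg, Rxrb, Aldh1a1 and Aldh1a2 were among the 147. The filters, the block and the variance settings cannot change a log2 fold change with 3 arrays in each group. Those entries kept their direction by construction. The 10 that turned came from leaving out arrays. Rxra 1454773_at had -0.0442 without mrhl siRNA replicate 1, and Rxra 1425762_a_at had 0.017 without scrambled siRNA replicate 3 and 0.0648 without mrhl siRNA replicate 2. Cyp26b1 had -0.0526 without scrambled siRNA replicate 1, -0.04 without mrhl siRNA replicate 1, -0.03 without mrhl siRNA replicate 2 and -0.15 without replicate 1 of both groups. Crabp1 had -0.27 without scrambled siRNA replicate 1, -0.04 without mrhl siRNA replicate 2 and -0.28 without replicate 1 of both groups. Leaving out 1 array gave 0.29 to 0.68 for Rara, and 0.35 to 0.64 and 0.52 to 0.84 for Rarg. It gave 0.21 to 0.45 for Aldh1a1, -0.53 to -0.21 for Aldh1a2, -0.0442 to 0.33 for Rxra 1454773_at, -0.14 to 0.0648 for Rxra 1425762_a_at, -0.0526 to 0.23 for Cyp26b1 and -0.27 to 0.30 for Crabp1. As the mean of all its probe sets, Rarg had 0.60 and Rxra -0.03.

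The 2 retinoic acid probe sets at an unadjusted p under 0.05 became 5 with the replicate block, 4 with the block and the trended and robust variance, where Aldh1a2 was lost, 1 with equal array medians, 1 with no filter, and 1 to 2 with 1 array left out (1 where array 2 of the scrambled group, or array 1 or 2 of the mrhl group, was omitted). The count of 1163 over all probe sets (limma) became 1758 with no filter, 3411 with the replicate block, 2132 with array weights, 4411 with the block and the trended and robust variance, and 674 to 2406 with 1 array left out. In that blocked, trended and robust fit 2 probe sets of the whole table passed, and 0 of the 9 genes. The 4 genes of the 77 on the pathway lists became 2 with no filter, 6 with the replicate block, 9 with the block and the trended and robust variance, and 1 to 7 with 1 array left out, comparisons chosen after seeing the data. That count was 1 without scrambled siRNA replicate 2 or mrhl siRNA replicate 2, 2 without mrhl siRNA replicate 1 and 7 without scrambled siRNA replicate 3. The causes were not tested. The block moved no member or list gene past an adjusted p of 0.05.

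Depth is not defined for these arrays. The log2 value of 3.62 is a percentile and not a detection limit. Rarb, Cyp26a1 and other genes under it were not shown to be above background, and neither were the tested genes over it.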
